A study of Rattus norvegicus with 138 samples.

Results

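The muscles described here are 14 tibialis anterior (TA) muscles of Lewis rats, collected 7 days post injury (DPI) from animals that did not run and whose volumetric muscle loss (VML) injury was filled with a minced muscle graft (MMG). They were chosen by their labels alone, as 8 injured and grafted muscles and 6 uninjured contralateral muscles, from a series of 82 samples of non-running or unassigned rats and 56 of running rats. The 8 injured muscles came from 8 rats, and 6 of these rats also gave a contralateral muscle. Each muscle gave 1 RNA library.

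The rats were inbred males of about 4 months in the study's methods. VML was made in the left TA as a full-thickness defect with a 6 mm punch, with a narrow strip of tissue left on either side. The excised piece was minced and returned to the defect of the same rat, so an injured muscle held surviving fibres, wound tissue and graft. The contralateral muscle received neither biopsy nor graft, although its label carries the MMG arm of its rat. For comparison at 7 DPI, VML-injured muscles without repair came from 8 rats and their contralateral muscles from 4. Grafted rats at 3 DPI gave 7 injured and 2 contralateral muscles, and at 14 DPI 4 and 2. Control muscles were 4, both TA of each of 2 rats, labelled as sham while the study's text calls its controls unoperated. Wherever whole muscles are compared, fewer cells of a type and less RNA per cell cannot be told apart.

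In regenerating muscle, satellite cells, the resident stem cells that carry Pax7, divide, switch on Myod1 and then Myog, and fuse into new fibres. New fibres build sarcomeres from embryonic and perinatal myosins before adult myosins replace them. Macrophages clear debris and fibro-adipogenic progenitors lay down matrix during the same days.

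Between 9122 and 10927 gene symbols exceeded 1 TPM (a transcript abundance corrected for length and scaled to the total of its library) in the 14 libraries. Ribosomal RNA took between 0.0979% and 1.67% of TPM, the highest share in the injured muscle of rat TS5.015 (rats are named as in the labels, and the plots show the last 3 digits). All 14 libraries carried skeletal muscle transcripts in abundance. Acta1, skeletal α-actin, had at least 31941 TPM in every contralateral muscle and at least 11339 TPM in every injured muscle. The 20 most abundant genes of a muscle took 40.2% to 43.8% of TPM in contralateral and 15.1% to 23.4% in injured muscles.

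The typical gene also differed between the groups on this scale. A gene was called when its adjusted p (limma, Benjamini-Hochberg over 11213 tested genes) was under 0.05 and its difference on log2(TPM + 1) was beyond 1 in either direction. Of the 11213 genes, 5237 were called (46.7%), 4857 higher in injured muscle (43.3%) and 380 lower (3.39%), and the median difference of all genes was 0.85. When TPM were divided by size factors, which bring the typical gene of every muscle to the same level, 2348 genes were called higher (20.9%) and 1527 lower (13.6%), with a median of 0.08. The shift between both scalings was 0.77 in the median. No gene called on TPM changed its sign with size factors, and all 380 lower calls held, against 2348 of the 4857 higher calls. The groups did not overlap for 77.9% of all tested genes, so separation of the groups by itself says little about a gene. Values below are on the TPM scale, and counts with size factors stand beside the counts of the lists for injured against contralateral muscle. List counts of the other comparisons were made on TPM alone.

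The genes with the largest rise combined matrix, macrophage, immature muscle and denervation genes. Spp1, osteopontin, a secreted phosphoprotein of macrophages and wound tissue, stood at a lowest value of 664, a median of 1086 and a highest value of 1719 TPM in injured muscle. Its contralateral values were 0.45, 1.74 and 3.47 TPM, and the log2 difference was 8.67 ± 0.46 (SE). Cthrc1, a secreted protein of collagen-producing cells, rose by 7.79 ± 0.30, and Tnc, the matrix protein tenascin C, by 7.40 ± 0.29. Ankrd1, a stretch-responsive protein of the sarcomere, was below 10 TPM in all contralateral muscles and between 955 and 2199 TPM in injured muscles (7.38 ± 0.25). The set was completed by Gpnmb, a glycoprotein of phagocytic macrophages (7.21), by Tnn, tenascin N (7.18), by Chrng (6.94), by the protease gene Klk1 (6.91), by Tnnt2, the cardiac and embryonic troponin T (6.75), and by Postn, periostin (6.67). All 10 stayed called with size factors, at 5.74 or more.

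The genes with the largest fall included several of fast fibres and of sugar metabolism. Mylk2, the myosin light chain kinase of skeletal muscle, had 54.1, 116 and 225 TPM (lowest, median and highest) in injured muscles against 804, 868 and 990 TPM in contralateral muscles, a difference of -2.95 ± 0.25. Asb11, a ubiquitin ligase subunit of muscle, fell by 3.09. Pfkfb1, which makes the glycolytic activator fructose 2,6-bisphosphate, fell by 2.80, and Fbp2, the fructose bisphosphatase of muscle, by 2.77. Aqp4, the water channel of fast fibres, fell by 2.88, and Ostn, the secreted peptide musclin, by 2.94. Adhfe1, an alcohol dehydrogenase of mitochondria, had the largest fall (-3.28 ± 0.22). The other members of the lowest 10 were LOC100910189 (-3.27), RGD1565323 (-3.19) and Cacng7, a calcium channel subunit (-2.65).

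**Figure D1:**
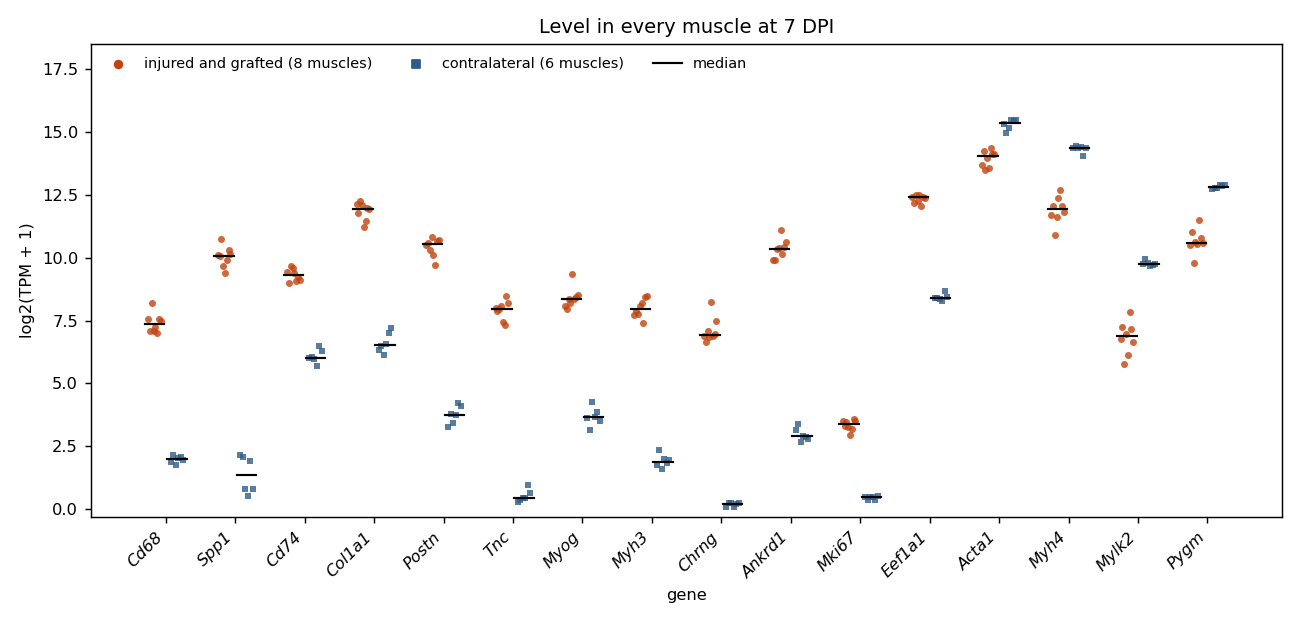
Level of 16 genes in every muscle at 7 DPI. The horizontal axis gives the gene and the vertical axis log2(TPM + 1), with a circle for each of 8 injured and grafted muscles, a square for each of 6 contralateral muscles and a bar at the median. No gene in the plot has overlapping groups, and Mylk2, Pygm, Acta1 and Myh4 are the 4 that lie lower in injured muscle.

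Macrophage genes rose together. All 25 tested members of the macrophage and monocyte list were called higher, with a median difference of 3.84 beside 0.85 for all genes and 43.3% of all genes called higher, and all 25 held with size factors. Cd68, a lysosomal membrane protein of macrophages, had 126.9, 164 and 289 TPM in injured muscles (lowest, median and highest) and 2.37, 3.00 and 3.40 TPM in contralateral muscles, a difference of 5.43 ± 0.24. The receptor gene Csf1r rose by 3.54 ± 0.17 and Cd14, the co-receptor for bacterial lipopolysaccharide, by 3.30 ± 0.20. Cd163, the haemoglobin scavenger receptor of tissue-resident macrophages, had a smaller difference of 2.51 ± 0.15. Cx3cr1, the fractalkine receptor, showed the smallest of the list (1.90). Summed over the list, injured muscles held 4975 to 10040 TPM and contralateral muscles 143.5 to 216 TPM.

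Antigen presentation and lysosomal genes followed. All 12 MHC class II genes were called higher on either scaling (median 3.18), among them Cd74, the invariant chain, with 503 to 807 TPM against 51.3 to 89.2 TPM. Of 30 lysosomal genes, 25 rose and none fell (18 with size factors), including Ctsb, cathepsin B, by 3.75 and Ctsk, the collagen-degrading cathepsin K, by 4.98. Complement genes rose for 21 of 24 (19 with size factors), with C1qa at 242 to 526 TPM against 18.7 to 25.9 TPM. Masp1, a protease of the lectin pathway, was the member called against its list, at 4.92 to 13.9 TPM in injured and 25.99 to 32.7 TPM in contralateral muscles (-1.57 ± 0.14).

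Of 32 cytokine and receptor genes, 29 were called higher (23 with size factors). The largest rise was that of Il1rl1, the interleukin 33 receptor (5.59 ± 0.19), with 40.1 to 112 TPM against at most 0.55 TPM. Il1b rose by 2.26 and Il6 by 1.35, whereas Tnf reached only 0.93 to 1.72 TPM in injured muscle and was not called (0.83 ± 0.14). Nos2, the inducible nitric oxide synthase of inflammatory macrophages, also missed the call, at 1.19 to 1.94 TPM (0.46 ± 0.13). Among 29 chemokine genes, 21 rose (17 with size factors). Ccl7 (4.76) and Ccl2 (4.33), which recruit monocytes, led them, and Ccl27 did not differ measurably (0.01, adjusted p = 0.97, limma). Interferon response genes were called higher for 30 of 32 (22 with size factors), but the injured muscles were spread widely: Mx1 ran from 7.86 to 62.6 TPM, above 30 TPM in rats TS5.015, TS5.024, TS5.107 and TS5.128 and below 20 TPM in the other 4.

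Iron and metal handling genes rose in 15 of 18 (10 with size factors). Hmox1, heme oxygenase 1, had 138.7, 219 and 400 TPM against 1.60, 2.48 and 3.05 TPM (6.05 ± 0.34), and Mt1, a metallothionein, at least 325 TPM against at most 6.78 TPM (6.23 ± 0.26). Tfrc, the transferrin receptor, fell by 1.17 ± 0.22, a call lost with control muscle as reference (-0.29). None of 8 erythroid genes was called. Hbb, β-globin, overlapped between the groups, at 1004 to 4542 TPM in injured and 781 to 8353 TPM in contralateral muscles (adjusted p = 0.26, limma).

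Other leukocyte markers were at lower levels. Of 24 tested T and natural killer cell genes, 19 rose (11 with size factors), and Cd8a, also found on rat macrophages, had the largest difference (4.11 ± 0.19). Cd3e, a part of the T cell receptor complex, reached 1.91 to 4.61 TPM against 0.15 to 0.49 TPM. Foxp3 moved the other way, at 0.19 to 0.46 TPM against 0.57 to 1.65 TPM, without a call on TPM (-0.80 ± 0.11) and with a call of lower after division by size factors (-1.17). Of 10 tested neutrophil genes 6 rose (60%, beside 43.3% of all genes). With size factors 4 rose, where 20.9% of all genes did. Mmp9, a gelatinase, was the highest of them (3.74 ± 0.44), while S100a9 overlapped between groups and was called on TPM alone. Only 4 of 10 B cell genes in the table passed the filter, and Ms4a1, the CD20 antigen, was not among them.

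Matrix genes formed the other large block. Of 9 fibrillar collagen genes, 8 were called higher on either scaling, with the highest median of all lists (4.39), and Col11a2 was not (0.85). Col1a1, a chain of type I collagen, had 2391, 3976 and 4933 TPM (lowest, median and highest) against 68.2, 91.1 and 148 TPM, a difference of 5.25 ± 0.30. Col3a1, type III collagen, was more abundant still, at 2880 to 5144 TPM against 107.5 to 190 TPM (4.86 ± 0.21). Matricellular and elastic matrix genes rose for 33 of 34 (32 with size factors), and Efemp1 was the exception, its groups overlapping. Fn1, fibronectin, rose by 4.83 and Eln, elastin, by 3.21.

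The enzymes that process collagen rose with it. Of 23 tested, 21 were called higher (19 with size factors), including Lox (4.98 ± 0.23) and Loxl1 (5.49 ± 0.20), which crosslink collagen and elastin. P4ha1, a prolyl hydroxylase subunit, was not called (0.81 ± 0.13). Of 26 metalloproteinase and inhibitor genes, 20 rose (19 with size factors, where 2 fell). Mmp14, a membrane-bound collagenase, rose by 5.58 and Mmp2, the gelatinase it activates, by 4.32. Timp1, an inhibitor of these enzymes, rose further, by 6.09 ± 0.29, whereas Timp4 fell short of a call on TPM (-0.77) and was called lower with size factors (-1.61).

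Fibroblast and fibro-adipogenic markers rose for 19 of 21 genes (16 with size factors). Pdgfra, their receptor for platelet-derived growth factor, had 24.6 to 37.9 TPM against 2.72 to 3.91 TPM (2.98 ± 0.15). Lum, the collagen-binding lumican, reached 1003 to 2279 TPM against 14.9 to 23.5 TPM (6.35 ± 0.26). Gsn, gelsolin, was lower in injured muscle with overlapping groups, short of a call on TPM (-0.90) and called with size factors (-1.86). Of 34 genes of TGF-β signalling and other negative regulators of myogenesis, 27 rose and 1 fell (18 and 4 with size factors). Tgfb1 was 57.6 to 101.3 TPM in injured and 4.0 to 5.05 TPM in contralateral muscles (3.74 ± 0.14). The member that fell was Mstn, myostatin, which restrains muscle growth: 1.13, 3.54 and 5.99 TPM against 17.1, 18.2 and 25.3 TPM (-2.25 ± 0.22).

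Myogenic genes rose unevenly along the sequence from satellite cell to fibre. Pax7 had 3.08, 5.23 and 7.48 TPM (lowest, median and highest) against 0.73, 0.90 and 1.41 TPM (1.64 ± 0.17, just short of a call with size factors at 1.00). Myod1 overlapped between groups, at 29.3 to 95.6 TPM against 22.5 to 42.2 TPM, and its difference of 0.73 on TPM turned to -0.20 with size factors. Myog, the factor that starts terminal differentiation, was far apart, at 247, 329 and 645 TPM against 7.89, 11.5 and 18.4 TPM (4.72 ± 0.24). Of the 20 regulators tested, 13 were called higher (65%, beside 43.3% of all genes). With size factors 6 were called higher, where 20.9% of all genes were.

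Genes of fusion and of immature fibres rose in 21 of 26 (19 with size factors). Tmem8c, which encodes the fusion protein myomaker, stood at 103.3, 115 and 190 TPM against 0.28, 0.38 and 0.44 TPM (6.57 ± 0.22). The embryonic myosin Myh3 had 167, 251 and 359 TPM against 2.0, 2.72 and 4.10 TPM (6.09 ± 0.31), and the perinatal myosin Myh8 130.6 to 244 TPM against 3.97 to 5.27 TPM (4.95 ± 0.23). The groups did not overlap for either myosin. Cav3, a membrane protein of mature fibres, was the lowest of this list (-0.27, and -1.22 with size factors).

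Genes that denervated muscle is known to switch on rose in the same muscles. Of 24 genes of the neuromuscular junction and denervation list, 18 were called higher and 1 lower (14 and 3 with size factors). The fetal acetylcholine receptor uses a γ subunit, which the ε subunit replaces in adult endplates. Chrng, the γ subunit, stood at 99.5, 122 and 301 TPM (lowest, median and highest) and was nearly absent from contralateral muscle, at 0.06, 0.16 and 0.20 TPM (6.94 ± 0.27). Chrne, the ε subunit, rose as well, from a median of 9.64 to 64.3 TPM (2.64 ± 0.19). Chrna1, the α subunit, rose from a median of 6.2 to 366 TPM (5.51 ± 0.30), Chrnd, the δ subunit, by 5.79 ± 0.33, and Chrnb1, the β subunit, by a difference that missed the call (0.99 ± 0.18) but reached it when any of 6 muscles was left out. Musk, the kinase that gathers the receptors, rose by 3.36. Ache, the esterase that ends the signal, was called lower, at 16.7 to 32.8 TPM against 55.3 to 63.3 TPM (-1.15 ± 0.18), a call lost with control muscle as reference (-0.79). Chrnd, Chrne and Chrnb1 are named after their values were seen.

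The stretches before the annotated starts of Chrng and Chrna1 are shown because both genes were far higher in injured muscle and because both carry, more than 1 time, the letters CAGCTG, an E-box of the kind that myogenic factors such as Myog are known to bind. They are RefSeq sequence of build GRCr8, 250 bases before the start and 10 after it, with CAGCTG in capitals. The motif reads the same on both strands. Chrng lies at chr9:95325734-95325993 on the plus strand and Chrna1 at chr3:78877344-78877603 on the minus strand.
Chrng: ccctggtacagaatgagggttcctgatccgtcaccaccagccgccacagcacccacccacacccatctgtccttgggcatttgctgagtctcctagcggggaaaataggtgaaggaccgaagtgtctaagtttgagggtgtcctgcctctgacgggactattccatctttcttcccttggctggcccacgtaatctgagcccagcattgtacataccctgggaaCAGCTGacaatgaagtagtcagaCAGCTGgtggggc
Chrna1: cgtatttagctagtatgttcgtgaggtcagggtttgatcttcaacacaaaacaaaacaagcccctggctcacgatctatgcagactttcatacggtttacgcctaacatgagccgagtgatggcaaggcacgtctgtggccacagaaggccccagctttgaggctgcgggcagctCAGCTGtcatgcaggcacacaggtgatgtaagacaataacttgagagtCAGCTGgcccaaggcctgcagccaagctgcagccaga
CAGCTG starts 26 and 3 bases before the start of Chrng, and 75 and 27 bases before that of Chrna1. Within the 300 bases that the RefSeq table holds for each gene, 15.1% of 33469 promoters have the motif and 1.69% have it 2 times or more. It was found in 8 of 18 neuromuscular junction genes with a promoter in the table (44.4%), in 6 of 15 fusion and immature fibre genes (40%), and in 6 of 23 adult sarcomere genes (26.1%). Chrne and Chrnb1 hold it 1 time each and Chrnd not at all. A match of letters is a description and shows no binding.

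Adult contractile genes fell while the immature ones rose. Of 29 adult sarcomere genes, 19 were called lower and 1 higher, where 3.39% of all genes were called lower, and with size factors 23 were lower. Acta1 had 11339, 16778 and 21252 TPM (lowest, median and highest) against 31941, 42503 and 45570 TPM (-1.36 ± 0.17). Mybpc2, the fast myosin-binding protein C, fell most (-2.64 ± 0.24). Lmod2, which elongates thin filaments, was the member that rose (2.07 ± 0.22).

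The adult myosins, the slow and intermediate forms named after their values were seen, did not fall alike. Myh4, the fastest myosin and the main one of the rat TA, dropped from a median of 21204 to 3960 TPM, with 1912 to 6695 TPM in injured muscle (-2.43 ± 0.21). Myh7, the slow myosin, fell by 2.06 ± 0.66 (-1.44 and not called with control muscle as reference), and Myh2, of fast oxidative fibres, by 1.25 ± 0.48 with overlapping groups, a call that was lost without the injured muscle of rat TS5.107 (-0.87). Myh1, of intermediate fast fibres, overlapped and was not called on TPM (-0.33 ± 0.23, adjusted p = 0.17, limma), although its value with size factors was -1.28.

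Of 22 genes of excitation-contraction coupling, 13 fell and 3 rose (15 and 2 with size factors). Atp2a1, the calcium pump of fast fibres, had 2343 to 7549 TPM against 15158 to 18528 TPM (-1.99 ± 0.18), and Casq1, which stores calcium in fast fibres, fell by 1.42. Jph2, which ties the tubules to the reticulum, had the largest fall (-2.10). The risers were Sln, Casq2 and Atp2a2. Sln, sarcolipin, an inhibitor of the pump, rose from 50.1 to 102.8 TPM up to 3690 to 7895 TPM (6.07 ± 0.24). Casq2, the calsequestrin of slow and cardiac muscle, rose by 3.44, and Atp2a2, the slow and cardiac pump, by 1.05 (0.10 with size factors, and 0.98 and not called without the contralateral muscle of rat TS5.107).

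Counts of genes of energy metabolism depended on the scaling and differed between its pathways. Of 36 glycolysis and glycogen genes, 22 fell and 7 rose (26 and 6 with size factors). Pygm, the glycogen phosphorylase of muscle, fell by 2.16 ± 0.19, Aldoa, a muscle aldolase, by 1.94 ± 0.18, and Pfkm, the muscle phosphofructokinase, by 1.80 ± 0.18. The genes that rose encode forms used outside adult fibres or glucose entry: Pfkp (2.85), Slc2a1 (2.82), Hk1 (2.36), Eno2 (2.28), Pfkl (2.18), Pgam1 (2.11) and Aldoc (1.0, a call lost when any of 5 muscles was left out, and 0.34 with size factors).

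Among 59 nuclear genes of oxidative phosphorylation, 9 were called lower and none higher on TPM, with a median of -0.72, while all 59 were lower with size factors (median -1.67). Cox6a2, the muscle form of a cytochrome oxidase subunit, fell most (-1.37), and Ndufs5 least (-0.12). Citrate cycle genes and mitochondrial regulators gave 7 of 30 lower (27 with size factors). Ppargc1a, a regulator of mitochondrial genes, had 1.74 to 6.83 TPM against 9.75 to 12.95 TPM and missed the call on TPM (-0.95 ± 0.21) but not with size factors (-1.76). Fatty acid oxidation genes mostly stayed within the threshold, with 1 of 31 called lower, Acadm (-1.36), and 1 higher, Slc27a1 (1.52), against 20 lower and none higher with size factors, where Slc27a1 was not called. The atrophy ligases Fbxo32 (0.42 ± 0.32) and Trim63 (0.30 ± 0.24) were not called on either scaling, and Mt1 and Asb2 (-2.01) bounded that list.

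Cell cycle genes rose, most of them at low levels. Of 43 cell cycle genes, 39 were called higher (36 with size factors), with a median of 2.42. Mki67, a marker of cycling cells, had 6.79, 9.38 and 10.95 TPM (lowest, median and highest) against 0.29, 0.40 and 0.42 TPM (2.89 ± 0.14), and Cdk1, the mitotic kinase, rose by 4.11 ± 0.20. Tpx2, a spindle factor, was the member called lower (-1.09 ± 0.20), at 8.74 to 16.99 TPM against 19.4 to 33.4 TPM. Of 37 cytosolic ribosomal protein genes, 17 rose on TPM (45.9%, beside 43.3% of all genes) and 1 with size factors, Rpl3 (3.64 ± 0.13), where 20.9% of all genes did. Immediate early genes rose in 20 of 24 (13 with size factors), Junb most (3.17), and Nr4a1 fell (-1.56 ± 0.23). Among 27 genes of protein folding in the endoplasmic reticulum, 19 rose (11 with size factors), and Chac1, which degrades glutathione, fell (-1.55 ± 0.36).

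The counts for the remaining cell types are to be read beside 43.3% of all genes called higher on TPM and 20.9% with size factors. Of 20 endothelial genes, 13 rose on TPM. With size factors 1 rose, Plvap, the fenestral diaphragm protein (2.60 ± 0.22 on TPM), and 1 fell, Aqp1, a water channel (-0.22 on TPM and -1.17 with size factors). Pecam1 rose by 1.65 on TPM and had 0.72 with size factors, short of a call. Of 16 smooth muscle and pericyte genes, 9 rose and 1 fell (5 and 2 with size factors). Acta2, also made by myofibroblasts, rose by 3.07, and Myh11, restricted to smooth muscle, overlapped (0.67, and -0.22 with size factors). Of 12 tested Schwann cell genes 7 rose, led by Erbb3 (3.16), and with size factors 5 rose and 1 fell. Of 14 adipocyte genes 4 rose (3 with size factors, where 1 fell), and Adipoq was not called (-0.18 ± 0.42). Scd, which desaturates fatty acids in many cells, was the list's highest (5.87 ± 0.32).

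Tendon and cartilage genes rose in 12 of 14 (9 with size factors). Tnmd, tenomodulin, had 23.9, 52.1 and 160 TPM (lowest, median and highest) against 0.95, 2.08 and 4.54 TPM (3.98 ± 0.47), and Thbs4, a tendon and muscle thrombospondin, rose by 4.56 ± 0.30. Comp, a cartilage matrix protein, rose by 2.72. Both Tnmd and Comp were highest in the injured muscle of rat TS5.024, at 160 and 81.4 TPM, where the next muscle had 84.05 and 21.6 TPM. Their part in other results was not tested.

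**Figure D2:**
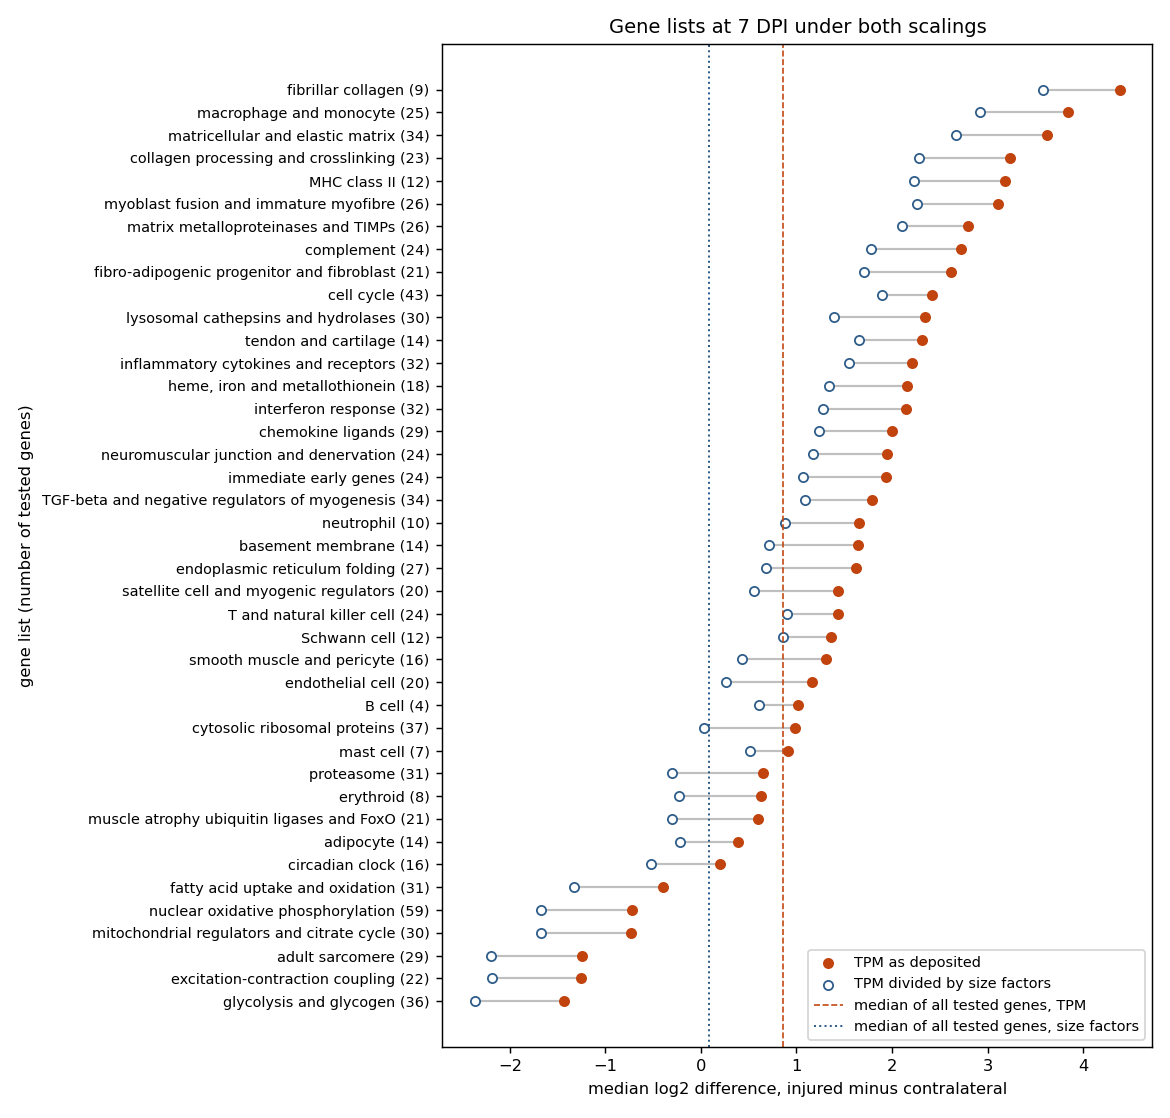
Median log2 difference, injured minus contralateral, of 41 gene lists at 7 DPI. The horizontal axis gives the median difference and the vertical axis the list with its number of tested genes; filled circles are TPM as deposited, open circles TPM divided by size factors, and the vertical lines the medians of all tested genes on each scale (0.85 and 0.08). Fibrillar collagen (4.39) and macrophage genes (3.84) lie farthest right, and glycolysis, excitation-contraction coupling and adult sarcomere genes lie below 0 on both scales.

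Although all 8 received the same injury and graft, the injured muscles differed from each other more than the contralateral ones did on log2(TPM + 1). The SD of log2(TPM + 1) was larger among injured than contralateral muscles for 77.97% of genes, with medians of 0.18 and 0.12. The typical gene was lower in contralateral muscle, where the added 1 compresses spread more, and SDs were not compared at matched levels. Of the 10 genes above 10 TPM with the largest SD, most were ribosomal or other noncoding RNAs, and RGD1565323 (1.30) and Myh2 (1.25) were among them. Myh2 ran from 58.9 TPM in rat TS5.107 to 940 TPM in rat TS5.128.

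The injured muscle of rat TS5.107 combined that low Myh2 with the highest values of Chrng, Chrna1 and Myog, though not of Myh3. It had 301 TPM of Chrng where the other 7 had 99.5 to 176 TPM, 749 TPM of Chrna1 where they had 283 to 468 TPM, and 645 TPM of Myog where they had 247 to 365 TPM. The muscle of rat TS5.023 stood apart in another direction, with the highest Cd68 (289 TPM) and the lowest Myh4 (1912 TPM). On the contralateral side, rat TS5.016 had 25.7 TPM of Chrna1 and 28.1 TPM of Chrnd, where the other 5 muscles reached at most 7.58 and 7.42 TPM, while its Chrng stayed within the range of the others.

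**Figure D3:**
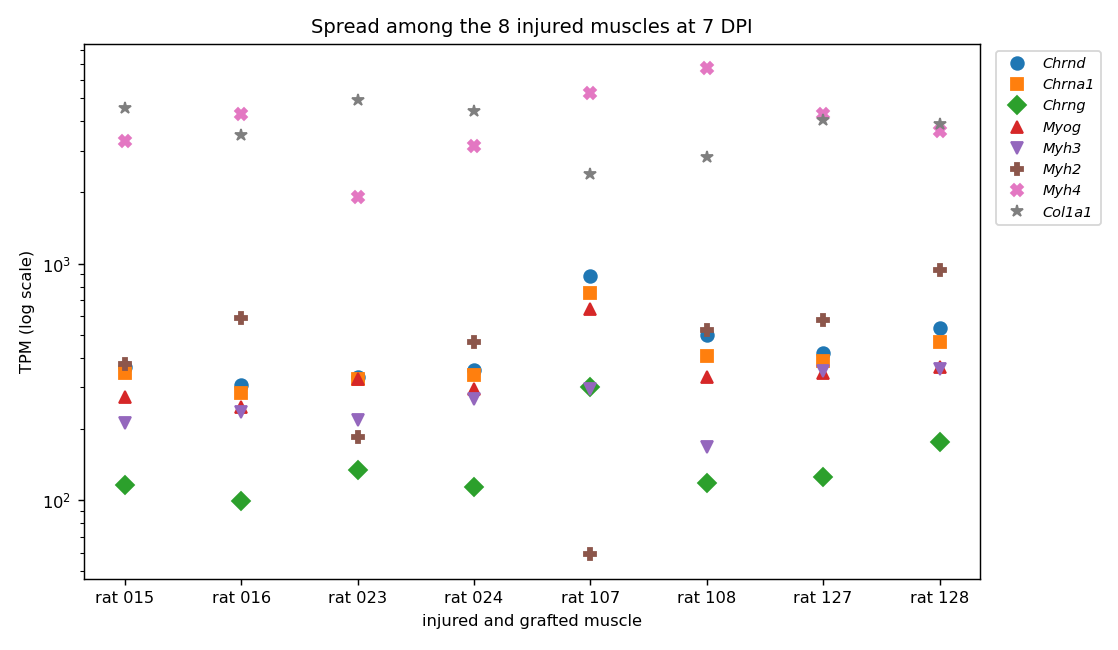
TPM of 8 genes in each injured and grafted muscle at 7 DPI. The horizontal axis gives the rat, the vertical axis TPM on a log scale, and each marker shape and colour is a gene. Rat TS5.107 has the highest Chrng (301 TPM), Chrna1 (749 TPM) and Myog (645 TPM) and the lowest Myh2 (58.9 TPM), and rat TS5.023 the lowest Myh4 (1912 TPM).

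Relations between gene levels across the 8 injured muscles were computed for the 10 pairs of Cd68, Col1a1, Myh3, Myh4 and Mki67, with two-sided exact permutation. Muscles with more Col1a1 had less Myh4: Pearson's r was -0.85 (exact p = 0.006, adjusted over 10 pairs p = 0.055) and Spearman's rho -0.93 (exact p = 0.0022, adjusted p = 0.022). Without the 2 muscles farthest from the median of Col1a1, r was -0.85. After division by size factors the relation was -0.76 (adjusted p = 0.12) by Pearson and -0.88 (adjusted p = 0.072) by Spearman. Cd68 and Myh4 gave an r of -0.80 (exact permutation, adjusted p = 0.073), which became -0.17 without the 2 muscles farthest from the median of Cd68, so it rests on those muscles. Col1a1 and Mki67 gave 0.83 (exact permutation, adjusted p = 0.055) and 0.25 without 2 muscles. The 4 pairs with Myh3 gave r between -0.077 and 0.23. No pair passed adjustment by Pearson and 1 pair by Spearman. TPM are shares of a total, so a muscle with more of a gene has less room for the rest.

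To ask whether the graft changed the injury response, the difference between injured and contralateral muscle was compared with that of rats without repair at 7 DPI. Without repair, 5371 genes were called, and 4777 were called in the same direction with graft, 91.2% of the graft calls and 88.9% of the others. None was called in opposite directions. The typical gene was higher in injured muscle in both arms, with a median difference of 0.85 with graft and 0.92 without repair. Of the shared calls 4558 were higher calls, so the overlap is to be read beside that shift. It was not computed with size factors. In the test of the difference itself (limma, adjusted over 11213 genes), no gene was called (0% of those tested), although 1251 had an unadjusted p under 0.05. That number ran from 538 to 2137 with muscles left out in turn, and moved by over 1.5 times without any of the non-repaired rats' contralateral muscles or the injured muscles of rats TS5.011 and TS5.023. The other fits gave between 0 and 49 calls, with 1 after division by size factors, 22 when the number range of the rats entered as a covariate and 6 without the injured muscle of rat TS5.020, which had no repair. The 95% interval of the difference lay within 1 log2 unit on both sides for 91.8% of genes, and its median half-width was 0.35. The 1 added to TPM narrows the intervals of low genes, so this share sets no bound for higher genes.

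For genes of fibre formation the intervals were wide enough to hold moderate differences of either sign. The difference between the injury effects was 0.042 for Myog (95% interval -0.69 to 0.77), 0.41 for Myh3 (-0.52 to 1.35) and 0.10 for Chrng (-0.71 to 0.92). Among matrix genes it was -0.15 for Col1a1 (-1.06 to 0.76) and -0.29 for Postn (-1.21 to 0.63). Spp1 had the interval farthest to the right of the genes plotted, 1.53 (0.14 to 2.92, adjusted p = 0.44, limma), with 36.4 to 1535 TPM in injured muscles without repair. For Myh4 the difference was -0.80 (-1.44 to -0.16, adjusted p = 0.44, limma). The intervals of these 2 genes are not adjusted for the number of genes.

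Genes that passed the adjusted p without regard to size included Syt8 and Lect2, named after their values were seen. Syt8, a synaptotagmin, had 3.67 to 6.68 TPM in grafted and 1.68 to 3.03 TPM in non-repaired injured muscles. Its injury effects differed by 0.93 (adjusted p = 0.015, limma). Lect2, a secreted chemotactic protein, had 1.00 to 2.04 TPM in grafted and 0.23 to 0.82 TPM in non-repaired injured muscles. Its injury effects differed by 0.81 (adjusted p = 0.033, limma). Both were low in either group.

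**Figure D4:**
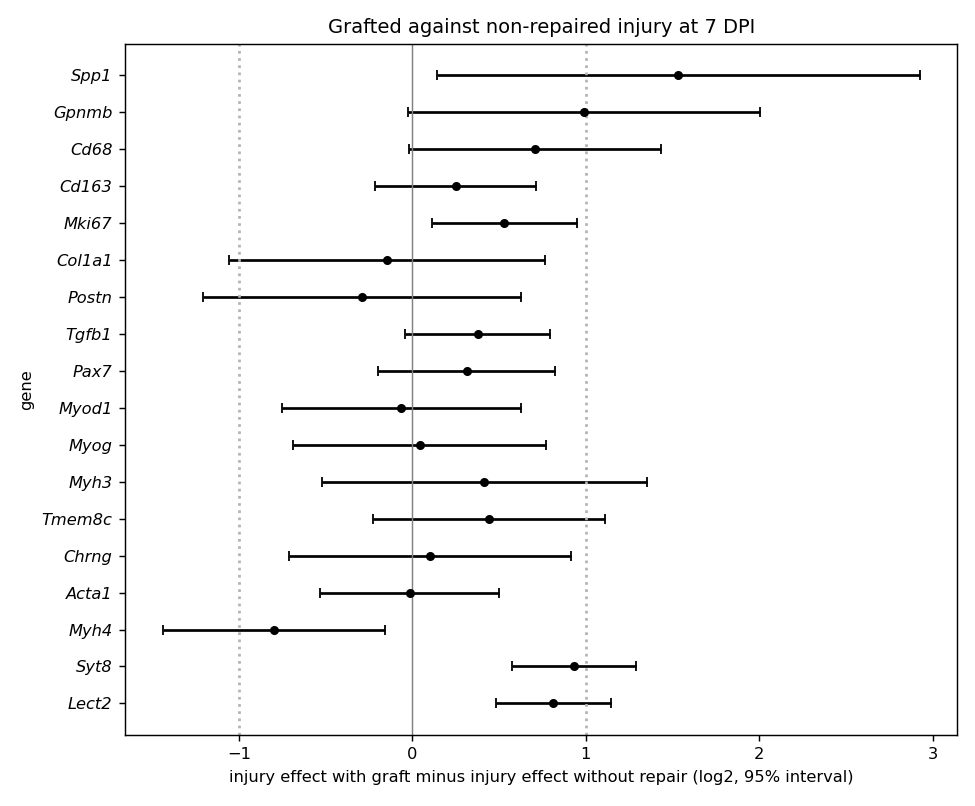
Difference between the injury effects with graft and without repair at 7 DPI for 18 genes. The horizontal axis gives the difference on the log2 scale with its 95% interval (not adjusted for the number of genes), and the vertical axis the gene; dotted lines mark differences of 1. Spp1 (1.53) has the widest interval, and Syt8 (0.93) and Lect2 (0.81) are past the adjusted threshold.

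The same comparison between days separates early from late members of the response. With graft, 4982 genes were called at 3 DPI and 2960 at 14 DPI, and each day was set against its own contralateral muscles. Between 7 and 3 DPI the injury effect differed for 780 genes (6.96%). Its signed value was higher at 7 DPI for 554 and lower for 226 (313 and 265 with size factors). A higher signed value can be a larger rise or a smaller fall. Genes are named here among those with a mean of at least 10 TPM in a compared group. Of these, the highest differences included both myosins of new fibres. The injury effect of Myh8 went from -0.46 at 3 DPI to 4.95 (difference 5.41 ± 0.40), and that of Myh3 from 1.40 to 6.09 (4.68 ± 0.55). Scd went from 1.0 to 5.87 (4.87 ± 0.57), Mir6323 from 0.29 to 4.69 and Clrn1 from 0.37 to 4.34. Of the tendon and cartilage list 10 of 14 had a higher signed effect at 7 DPI and 1 a lower one. Of matricellular genes 21 of 34 had a higher one.

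With the same minimum, the lowest differences from 3 to 7 DPI were those of Gal, the neuropeptide galanin (4.56 to 1.68), Glrx, glutaredoxin (3.13 to 0.70), Cd8a (6.14 to 4.11), Cd163 (4.45 to 2.51) and Ns5atp9 (6.17 to 4.25). Cell cycle genes lost as a block, 35 of 43, and Mki67 went from 4.55 to 2.89. Of 25 macrophage genes 4 had a lower signed effect at 7 DPI by the call and 1 a higher one, beside 226 lower of all 11213 genes. Of the adult sarcomere list 5 genes had a higher injury effect at 7 than at 3 DPI. Myh4 went from -3.22 to -2.43, a difference short of the call.

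Between 7 and 14 DPI the injury effect differed for 1077 genes (9.6%). Its signed value was higher at 7 DPI for 926 and lower for 151 (450 and 301 with size factors). A lower signed value can be a larger fall, as for Ky and Ostn below. The split was 731 and 80 without the contralateral muscle of rat TS5.135 at 14 DPI, and 595 and 15 when libraries of low complexity were kept. Of 25 macrophage genes, 23 had a larger effect at 7 than at 14 DPI. Spp1 fell from 8.67 at 7 DPI to 3.14 at 14 DPI (difference 5.53 ± 0.87), Il1rl1 from 5.59 to 2.18, Sfrp2, a secreted Wnt antagonist, from 6.21 to 2.93, Hmox1 from 6.05 to 2.79 and LOC290595 from 3.31 to 0.37. Cell cycle genes receded in 34 of 43 and cytokine genes in 18 of 32. The new-fibre myosins were not lower at 14 DPI, with Myh3 at 6.14 and Myh8 at 5.35, and Postn stood at 7.11.

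Among genes with a mean of at least 10 TPM, the lowest differences between 7 and 14 DPI were those of Prkaa2, a catalytic subunit of AMP-activated kinase (-1.90 against 0.60), Srebf1, a regulator of lipid synthesis (-1.96 against 0.46), Ky, a Z-disc protease (-2.55 against -0.33), Ostn (-2.94 against -0.93) and Adam11 (-1.78 against 0.20). Of the glycolysis list 11 of 36 had a lower and 4 a higher injury effect at 7 than at 14 DPI, and of excitation-contraction coupling 8 of 22. Both later and earlier days rest on 2 contralateral muscles each, and calls between 7 and 14 DPI ranged from 811 to 1390 when muscles were left out in turn. When libraries of low complexity were kept, 466 genes differed between 7 and 3 DPI and 610 between 7 and 14 DPI, although no group of these comparisons holds such a library and they entered through the shared model alone.

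**Figure D5:**
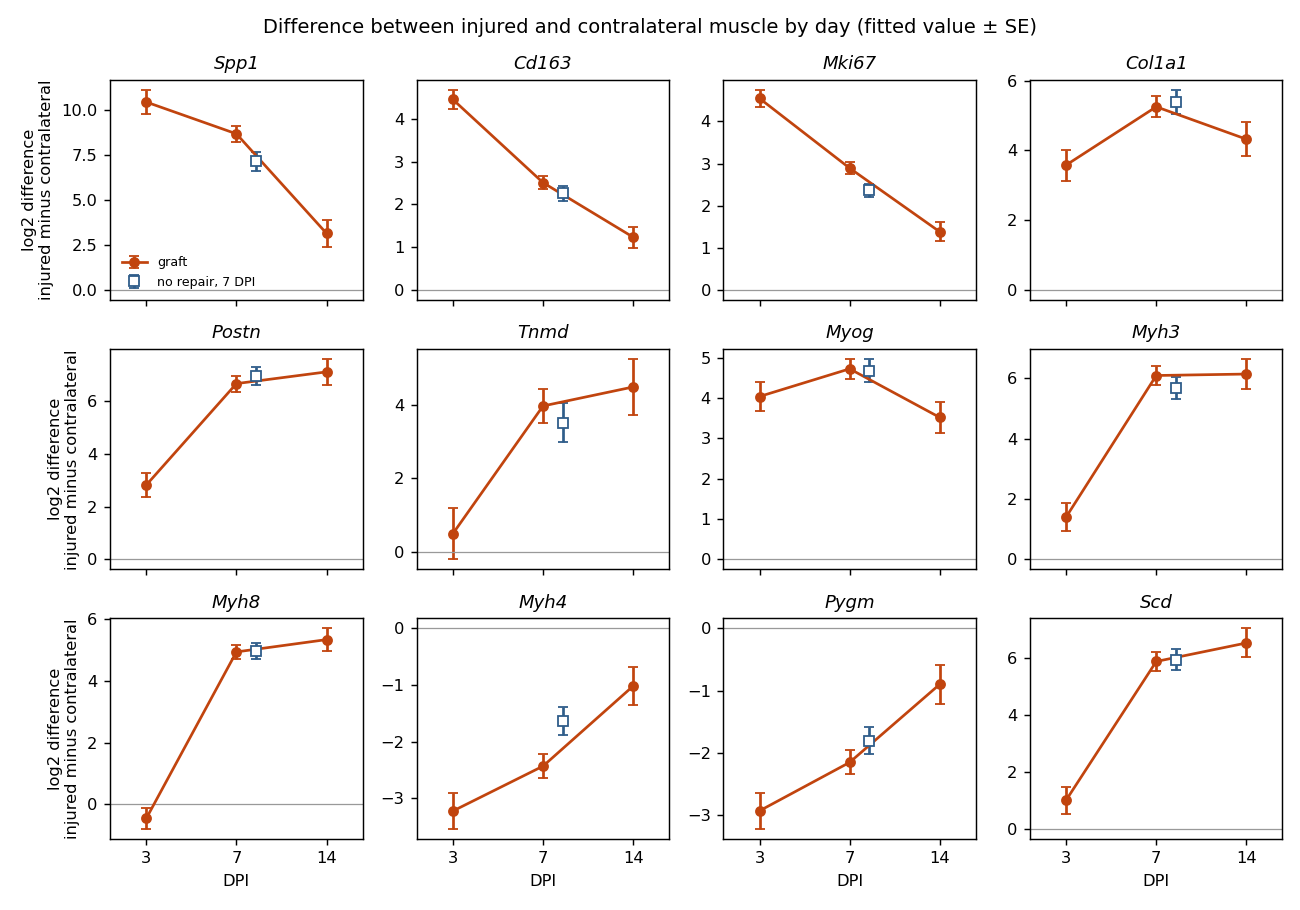
Difference between injured and contralateral muscle of grafted rats at 3, 7 and 14 DPI for 12 genes. The horizontal axis gives the day and the vertical axis the log2 difference on log2(TPM + 1), as the fitted value ± SE; filled circles are grafted rats and the open square rats without repair at 7 DPI. Myh8 and Myh3 go from -0.46 and 1.40 at 3 DPI to 4.95 and 6.09 at 7 DPI, while Spp1 goes from 10.44 to 8.67 and 3.14.

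The contralateral muscle that serves as reference was itself set against control muscle. The groups differed for 161 genes (1.44%), 147 higher and 14 lower in contralateral muscle (117 and 26 with size factors). Col1a1 had 68.2 to 148 TPM in contralateral and 11.4 to 21.5 TPM in control muscles (2.43 ± 0.36), Col3a1 was higher by 2.04 ± 0.25 and Postn by 2.04 ± 0.36. Of 9 fibrillar collagen genes 5 were called higher, and of 34 matricellular genes 12. Among the genes called lower were Fos, an immediate early gene (-1.64), and Chac1 (-1.38), named after their values were seen. The count rose to 807 with a pseudocount of 0.1 and to 265 without the left control muscle of rat TS4.038, and fell to 26 when libraries of low complexity were kept. Without the right control muscle of rat TS4.038, 81 genes were higher and 27 lower. Myh4 (-0.18, adjusted p = 0.63, limma) and Acta1 (-0.34, adjusted p = 0.22, limma) were not called. Control muscles were both TA of each control rat, so the control side rests on fewer animals than muscles. All control rats carry another number series than operated rats, so number series and treatment cannot be told apart. With control muscle as the reference for the injured muscles, 6117 genes were called in place of 5237.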

How the data were processed

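RNA of whole TA muscles was sequenced, and the authors quantified the reads with kallisto and deposited TPM, scaled to the total of each library, for gene symbols against build 6.0 of the rat genome with GenBank annotation (the version of kallisto is not given in the sources used here). The sources state an average depth, but that of each library is unknown, so no counting interval is given. The table used here holds 16181 complete symbols, and 1 incomplete entry was left out. Groups came from the labels, 9 samples stayed unassigned, and 56 libraries of running rats were left out. Of all libraries 13 had fewer than 7000 symbols above 1 TPM and were left out. None was among the 14 described or in another grafted, non-running group. Of the 13, 5 were non-running rats without repair at 7 DPI (3 injured, 2 contralateral) and 8 were running rats.

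Values were log2(TPM + 1), so differences of low genes are understated. The 11213 genes whose mean exceeded 1 TPM in any of 17 groups were fitted with limma 3.58.1 (R 4.3.3) over 68 muscles of non-running rats, with the rat as a random block (within-rat correlation -0.0074, 51 residual degrees of freedom) and a trended prior. SE is that of the fit. A call needed a Benjamini-Hochberg adjusted p under 0.05 and a difference beyond 1. Pairing comes from the shared animal. Deviations of muscles of the same rat correlated at -0.034 to 0.11. Replicates are different rats except in the control group, which holds both TA of each rat. With the fitted within-rat correlation of -0.0074 these were weighted almost as separate animals. On simulated data made for the grafted against contralateral comparison (200 changed among 11213 genes), 100% of genes changed by 1.5 and by 3 on the log2 scale were called, with 1 false call. The simulation had the same baseline in all groups, changed genes above the floor only, independent normal noise and no shift of the typical gene. It checks the code and gives no error rate for these data. Relations used exact permutation (scipy 1.17.1). Alternatives were a pseudocount of 0.1, no filter, size factors, no block, the compared groups alone, all libraries, the range of rat numbers, and each muscle left out, and for injured against contralateral muscle also the 6 paired rats, either range of rats alone and control muscle as the reference. Size factors with the compared groups alone were added after seeing the data.

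Members and gene lists were chosen with earlier results of these data known. Genes were named as the 10 highest and lowest called genes without overlap and at least 10 TPM, the lead, extreme and contrary members of each list, the 5 highest and lowest called differences between injury effects with at least 10 TPM, and the 10 genes with the largest SD among injured muscles. Proteins were not printed, and a few genes that these rules name are not reported here. Promoters and mature miRNAs are RefSeq sequence (GRCr8), used for letters only.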

Additional observations from a re-analysis of the deposited data

Results flagged for a closer look

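Single muscles stood apart from the rest of their group on log2(TPM + 1) by Dixon's test at the 95% level in 23 of 284 tests of named genes, and chance flags about 1 in 20 groups. Among the injured muscles, that of rat TS5.107 was highest for Myog (645 TPM), Sln (7895 TPM) and Trim63 (330 TPM). The injured muscle of rat TS5.023 was highest for Slc2a1, a glucose transporter (30.8 TPM), and Pfkl, a phosphofructokinase (33.7 TPM), and lowest for Ppargc1a (1.74 TPM) and Prkaa2 (4.75 TPM). Among contralateral muscles, that of rat TS5.016 was highest for the junction genes Chrna1 (25.7 TPM), Chrnd (28.1 TPM), Chrne (12.7 TPM) and Musk (2.20 TPM), and for Mstn (25.3 TPM) and RGD1565323 (334 TPM). It was lowest for Foxp3 (0.57 TPM) and Cdk1 (0.30 TPM). That of rat TS5.127 was highest for S100a9 (11.7 TPM) and Adipoq (10.3 TPM) and lowest for Myh4 (17023 TPM). Rat TS5.108 was lowest for Tnnt2 (0.97 TPM) and Junb (5.61 TPM). Rats TS5.107, TS5.128 and TS5.015 were highest for Il6 (0.23 TPM), Tnf (0.58 TPM) and Lect2 (0.06 TPM), all below 1 TPM.

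The injury effect of grafted rats differed between days by the test of the difference itself (limma) for 780 genes between 7 and 3 DPI and for 1077 between 7 and 14 DPI. The differences of 7 minus 3 DPI were 5.41 for Myh8, 4.87 for Scd, 4.68 for Myh3, 4.40 for Mir6323 and 3.97 for Clrn1. They were -2.87 for Gal, -2.43 for Glrx, -2.03 for Cd8a, -1.94 for Cd163 and -1.93 for Ns5atp9. The differences of 7 minus 14 DPI were 5.53 for Spp1, 3.42 for Il1rl1, 3.28 for Sfrp2, 3.26 for Hmox1 and 2.94 for LOC290595. They were -2.51 for Prkaa2, -2.42 for Srebf1, -2.22 for Ky, -2.01 for Ostn and -1.98 for Adam11.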

How the results depend on the processing

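The 5237 calls of the comparison of injured with contralateral muscle ranged from 3875 (size factors) to 6117 (control muscle as reference) over the alternatives, and from 5187 to 5392 with muscles left out in turn. The replicate block changed no count by over 1.5 times: 5237 genes were called without the block and 5219 in the 6 rats with both muscles paired by rat. Within rats TS5.015 to TS5.024 the count was 5264, and within rats TS5.107 to TS5.128 it was 5341. Of the difference between graft and no repair, 1 gene was called with a pseudocount of 0.1, 1 with size factors, 22 with the range of rat numbers and 49 with all libraries, and 0 to 6 with muscles left out. Between 7 and 3 DPI 466 genes were called with all libraries and 668 to 870 with muscles left out. Between 7 and 14 DPI these were 610 and 811 to 1390. Contralateral against control muscle, with 1.44% of genes called, gave 7.20% with a pseudocount of 0.1, 0.232% with all libraries and 0.963% to 2.36% with muscles left out; the range of rat numbers could not be fitted there. Causes were not tested.

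Among named genes these differences changed sign, none of them a call. With size factors (and with size factors in the compared groups alone) they were -0.20 (-0.26) for Myod1, -0.0273 (-0.0607) for Nos2, -0.69 (-0.74) for Ccl27, -0.27 (-0.33) for Hbb, -0.0654 (-0.12) for Efemp1, -0.13 (-0.19) for P4ha1, -0.51 (-0.57) for Fbxo32, -0.65 (-0.71) for Trim63, -0.22 (-0.28) for Myh11 and -0.24 (-0.30) for Glrx. Against control muscle they were 0.69 for Gsn, 0.0479 for Ndufs5, -0.28 for Fbxo32, -0.0845 for Trim63 and 0.62 for Adipoq. In rats TS5.015 to TS5.024 they were -0.0658 for Ccl27, -0.0485 for Hbb, -0.0654 for Fbxo32 and 0.71 for Adipoq. With muscles left out, Ccl27 ran from -0.0331 to 0.0538 and Adipoq from -0.40 to 0.11. Calls were lost with a muscle left out for Aldoc (5 muscles, lowest 0.92), Atp2a2 (0.98) and Myh2 (-0.87), and gained for Chrnb1 (6 muscles, highest 1.05). Against control muscle 8 named genes lost their call (Ache, Adam11, Aldoc, Fos, Myh7, Srebf1, Syt8 and Tfrc). Aldoc lost it within either range of rats, Atp2a2 within the lower and Myh2 within the higher. TPM keep no depth, so precision rests on the spread between muscles.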

Other observations

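For 2 pairs of genes, chosen after their values were seen, the form used in adult fibres and the form used elsewhere had different values. Rpl3, a ribosomal protein, had 858 to 1183 TPM in injured and 71.9 to 94.0 TPM in contralateral muscles (3.64 ± 0.13), and Rpl3l, its striated muscle form, 92.3 to 313 TPM against 785 to 879 TPM (-2.20 ± 0.21). Neither gene had overlapping groups, and both calls held with size factors. Eef1a1, a translation elongation factor, rose from a median of 336 to 5398 TPM (3.92 ± 0.13). Eef1a2, its form of adult muscle and neurons, overlapped (-0.40 ± 0.14, and -1.35 with size factors, called).

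Values of 7 imprinted genes, also chosen for their values, are given as a description. Dlk1, a membrane protein of fetal tissue, had 60.9, 80.5 and 103.4 TPM (lowest, median and highest) against 0.28, 0.41 and 0.55 TPM (5.85 ± 0.29). Cdkn1c, a cell cycle inhibitor, rose by 4.44, Plagl1 by 3.48, Peg3 by 2.66, the growth factor gene Igf2 by 2.58, and Grb10 by 1.70 (0.76 with size factors, not called). H19, a long noncoding RNA, overlapped, with 0.78 on TPM and -0.17 with size factors.

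Hairpin genes of microRNAs (miRNAs) are short, and their TPM come from long RNA libraries and are not levels of the mature RNA. Of 176 tested, 72 were called higher and 3 lower (55 and 6 with size factors), beside 43.3% and 3.39% of all genes. Mir223, known from myeloid cells, had 18.9 to 98.5 TPM against 0 to 14.9 TPM (3.78 ± 0.51), and Mir142, of blood cells, 6.48 to 83.8 TPM against 0 to 3.80 TPM (3.73 ± 0.60). Mir21, known from wound and fibrotic tissue, had 30.4 to 63.5 TPM against 0 to 7.93 TPM (3.43 ± 0.48), and Mir133b, of muscle, 202 to 605 TPM against 19.9 to 71.5 TPM (3.34 ± 0.37). The groups did not overlap for any of these 4, which were chosen after their values were seen. The 3 called lower were Mir208b, also of muscle (-2.08, with a median of 0 against 4.05 TPM), Mir3582 (-1.30) and Mir3556b (-1.25). The 1 mature form shown for each carries its seed, bases 2 to 8, in capitals, and the seeds differ.
rno-miR-223-3p: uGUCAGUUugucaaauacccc
rno-miR-142-3p: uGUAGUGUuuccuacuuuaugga
rno-miR-21-5p: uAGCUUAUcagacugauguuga
rno-miR-133b-3p: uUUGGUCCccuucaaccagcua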
